A study of Mus musculus with 12 samples.

Results

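Mitochondrial ribosomal protein genes were the genes of the liver expression table whose symbol is Mrpl or Mrps followed by a digit, and 77 of the 11289 genes in the table met that rule. By the place of the protein in the assembled mammalian mitoribosome, 50 of them belong to the large subunit, 26 to the small subunit and 1, Mrps36, to neither. The genes lie on 17 chromosomes. The transcript given for Mrpl20, Mrpl23, Mrps12, Mrps14 and Mrps35, among others, is not annotated as protein-coding. Their scores ran from 113, for Mrps36 in a Con A + PBS mouse, to 1660, for Mrpl17 in a Con A + hWJ-MSCs mouse. Every gene of the table reaches a score of 64 in at least 2 mice, and all 77 members were above that in every mouse, so none was kept through 1 group alone.

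Mitochondrial ribosomes are built in the mitochondrial matrix from ribosomal RNA that the mitochondrial genome encodes and from proteins that are all encoded in the nucleus, made in the cytosol and imported. They translate the few messages of the mitochondrial genome, whose products are core subunits of the respiratory chain and of ATP synthase. Hepatocytes are rich in mitochondria, and the liver's oxidation of fatty acids, urea synthesis and glucose production all depend on them. Many of the proteins have a counterpart in the bacterial ribosome, and others were added during the evolution of mitochondria.

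The samples were livers of C57BL/6J mice, 4 in each of 3 groups, taken 24 h after the injection. Concanavalin A (Con A), a lectin from jack beans that sets off T cells and with them an acute hepatitis, was given into the tail vein at 15 mg/kg. The Con A + PBS mice received PBS by vein 30 min later, and the Con A + hWJ-MSCs mice received human Wharton's jelly mesenchymal stem cells (hWJ-MSCs, which the labels call hUC-MSCs) in PBS. The control mice carry only the word control in their labels, and nothing states what they were injected with. No mouse carried a transgene or deleted gene according to the labels, which give an age of 8 to 10 weeks. The methods of the study give a younger age and another number of cells, so the number of cells is not given here. No step that separates human from mouse RNA is described in the sources used here.

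Each value is a score, a whole number that had already been scaled between mice before deposit. The totals ran only from 17649654 to 17657159 and the median of all genes was the same in every mouse. Scores of 1 gene can therefore be compared between mice, but the sequencing depth is unknown and levels of different genes are not compared. In every mouse 10 genes shared the highest score, 341028, so differences at that level cannot be seen. Whether this limits the hepatocyte sums that follow was not tested. All 15 hepatocyte markers were present, with a summed score of 1528853 to 1762254 in the control mice, 1128017 to 1173899 in the Con A + PBS mice and 1191867 to 1269964 in the Con A + hWJ-MSCs mice. The 10 listed monocyte and neutrophil markers in the table summed to 378 to 589, 1689 to 2671 and 1576 to 2854 in the same order. The 3 T cell markers in the table, of 11 listed, summed to 31 to 66, 208 to 359 and 180 to 220. Of 11 macrophage and Kupffer cell markers listed, 10 were in the table, without Adgre1. They summed to 5813 to 9268, 1801 to 2676 and 906 to 2583. The study's flow cytometry found more macrophages after Con A, a measure of cells and not of RNA. The 9 endothelial markers summed to 3007 to 4296, 1708 to 2171 and 1834 to 2293. The 3 cholangiocyte markers in the table, of 5 listed, summed to 2254 to 4431, 2340 to 13241 and 2208 to 6466. No marker in the table was at 0 in all mice of a group, but genes with low scores had been left out before deposit. In whole liver, fewer cells of a type and less RNA per cell cannot be told apart, and the part of these shifts in the differences below was not tested.

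The rule did not use position. Of the 77 members, 17 (22.1%) have a start site within 1000 bases of the start site of another gene read in the opposite direction, compared with 9.26% of all 11289 genes, and the bases between the pair are then read by both as upstream sequence. Intervals of this kind and 1 upstream stretch are shown for a selection of members, which does not stand for the others. Each is in mm10 (GRCm38.p6, RefSeq), 5′ to 3′ on the strand of the member named first. Capitals mark the core letters GCATGCG of the NRF1 site or CCGGAAG of the ETS site, which is the site bound by GABP, searched on both strands, with overlapping matches joined.

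Mrpl14 and Tmem63b, chr17:45686260-45686321, plus strand: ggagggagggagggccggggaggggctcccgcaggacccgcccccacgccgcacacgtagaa
Mrpl49 and Fau, chr19:6057752-6057887, minus strand: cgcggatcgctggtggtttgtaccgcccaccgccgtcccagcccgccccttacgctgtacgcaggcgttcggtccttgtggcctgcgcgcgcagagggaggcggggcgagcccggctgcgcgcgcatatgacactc
Mrpl46 and Mrps11, chr7:78783067-78783118, minus strand: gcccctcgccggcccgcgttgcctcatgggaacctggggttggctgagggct
Mrpl43 and Peo1, chr19:45006443-45006557, minus strand: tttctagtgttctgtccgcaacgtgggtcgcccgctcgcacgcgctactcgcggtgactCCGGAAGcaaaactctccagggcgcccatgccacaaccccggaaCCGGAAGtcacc
Mrps18c and Helq, chr5:100798599-100798626, plus strand: gtgaCTTCCGGcccgggaagcgcgggaa
Mrpl32 and Psma2, chr13:14613038-14613241, minus strand: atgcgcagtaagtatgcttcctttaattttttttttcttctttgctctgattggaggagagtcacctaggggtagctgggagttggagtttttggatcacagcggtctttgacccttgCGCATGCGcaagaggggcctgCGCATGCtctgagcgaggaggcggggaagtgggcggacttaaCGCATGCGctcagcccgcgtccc
Mrpl17, the 250 bases before its RefSeq start, chr7:105811088-105811337, minus strand: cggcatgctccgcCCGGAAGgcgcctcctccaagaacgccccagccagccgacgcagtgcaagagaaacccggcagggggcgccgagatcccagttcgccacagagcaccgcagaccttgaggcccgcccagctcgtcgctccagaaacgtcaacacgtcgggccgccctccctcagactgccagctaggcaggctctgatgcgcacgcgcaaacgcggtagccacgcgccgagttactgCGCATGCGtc

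The intervals before Mrpl14 and Mrpl49, the members with the lowest Con A + PBS values against control, hold neither set of letters. The interval before Mrpl43 holds the ETS letters at 2 places, and that before Mrps18c at 1. The interval before Mrpl32 holds the NRF1 letters at 3 places, and this gene passed only with hWJ-MSCs against control (limma, adjusted p 0.0365). The stretch before Mrpl17, which with Mrps18b rose most after Con A, holds both. Among members not shown, Mrps27, Mrpl39 and Mrpl9 fell after Con A. The interval before Mrps27 holds the ETS letters, and the stretches before Mrpl39 and Mrpl9 hold the NRF1 letters. The interval before Mrpl30, higher with hWJ-MSCs than in control, holds neither. Counts over all windows are given below. Mrpl46 and Mrps11 are both members, 1 of the large and 1 of the small subunit, and their starts lie 53 bases apart.

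**Figure D1:**
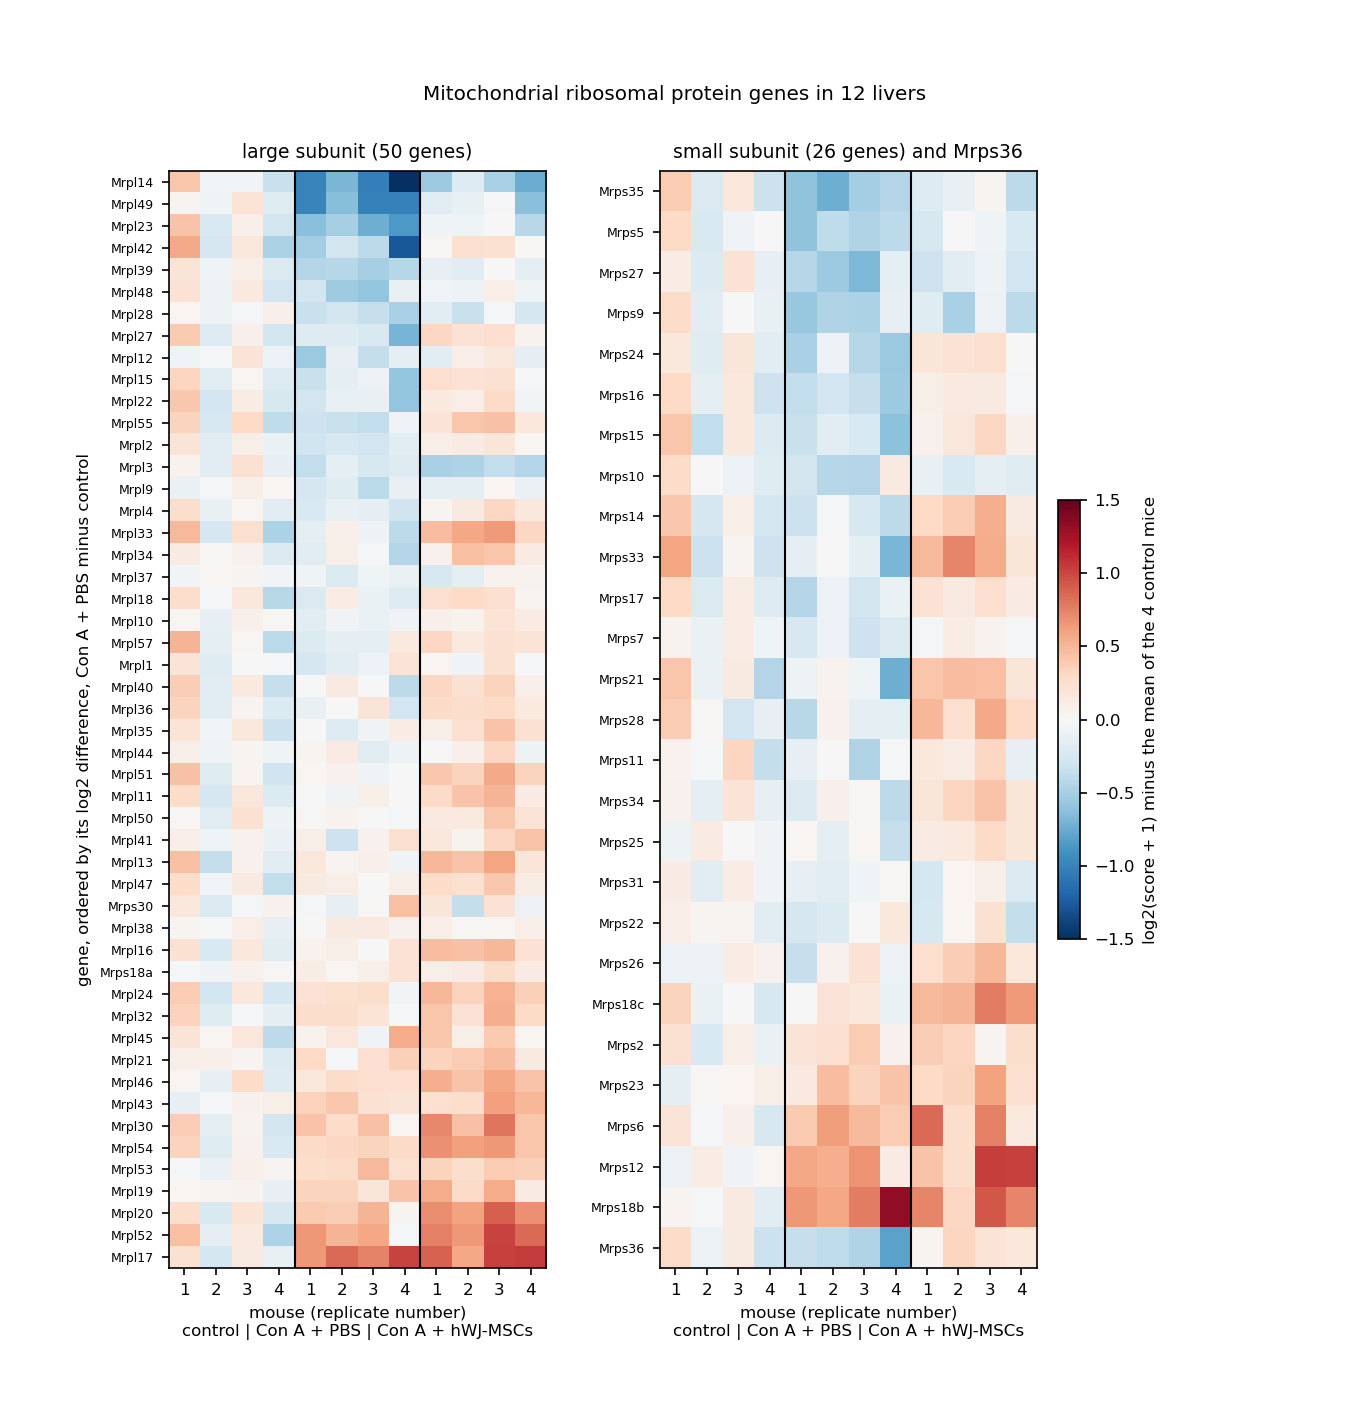
Heat map of log2(score + 1) of each of the 77 genes in each of the 12 mice, minus the mean of the 4 control mice; rows are genes, columns are mice, red is above and blue below the control mean, and the colour scale ends at 1.5 in either direction. Mrpl14 and Mrpl49 at the top of the large subunit are lowest in the Con A + PBS mice, and Mrpl17 and Mrps18b near the bottom are high in both Con A groups.

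The first comparison sets Con A + PBS beside control. The mitoribosome genes moved in both directions and mostly by little. At an adjusted p below 0.05 (limma, adjusted over all 11289 genes), 9 of the 77 rose and 16 fell, and 52 passed in neither direction, while 29.5% of all genes rose and 26.0% fell (55.5% in either direction). With a fold above 1.5 as well, 2 rose (19.5% of all genes) and 4 fell (19.2%, or 38.8% in either direction). The median log2 difference over the members was -0.09, beside 0.045 over all genes, and the middle 50% of members lay between -0.27 and 0.087. The estimate was above 0 in 29 members and below 0 in 48. All 4 Con A + PBS mice were above all 4 control mice for 8 members (10.4%, compared with 27.1% of all genes) and below them for 11 members (14.3%, compared with 23.4%).

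**Figure D2:**
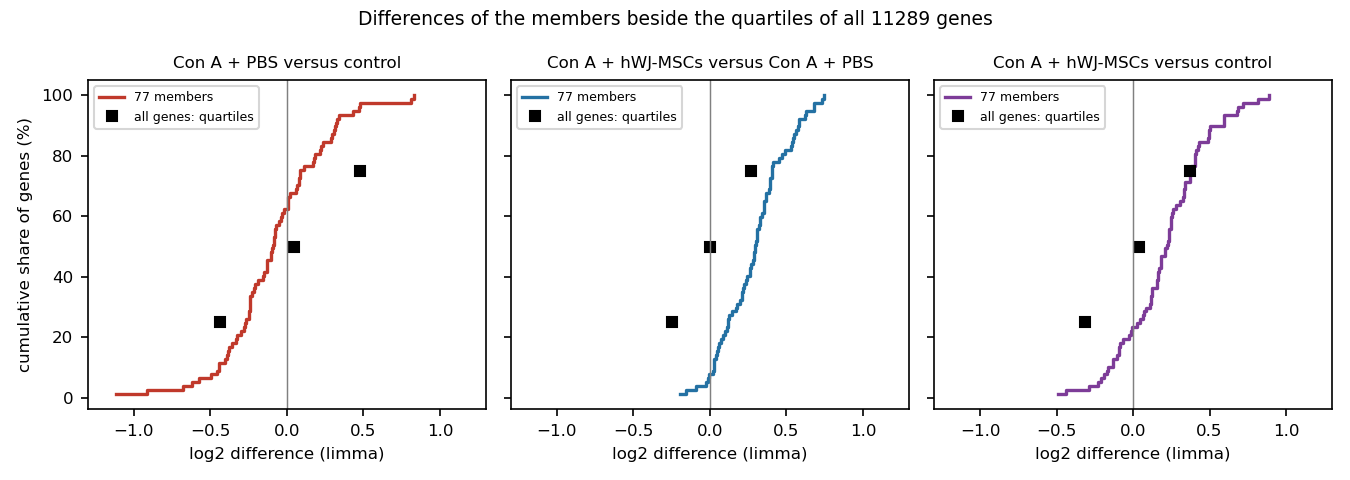
Cumulative share of the 77 members (line, percent, vertical axis) by their log2 difference from limma (horizontal axis) in the 3 comparisons, with the quartiles of all 11289 genes as squares. In the middle panel, hWJ-MSCs against PBS after Con A, 71 of the 77 members lie above 0 while the middle square, the median of all genes, lies at 0.

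Mrpl14 (chr17:45686322-45698495) had the lowest estimate of all members. It is the counterpart of bacterial L14, sits on the face of the large subunit that meets the small one, and binds the assembly factor Malsu1. Mrpl14 scored 987, 718, 722 and 586 in control mice 1 to 4, 370, 458, 363 and 220 in the Con A + PBS mice and 508, 646, 528 and 443 in the Con A + hWJ-MSCs mice. Every Con A + PBS mouse was below every control mouse, and the mice given hWJ-MSCs overlapped both groups. The log2 difference between Con A + PBS and control was -1.115 (95% interval -1.58 to -0.65, adjusted p 9.0e-04), a fold of 0.462.

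Mrpl49 (chr19:6053630-6057751) is a large subunit protein that bacteria lack. Mrpl49 scored 452, 418, 503 and 386 in the control mice, 219, 281, 217 and 216 in the Con A + PBS mice and 390, 406, 428 and 284 in the Con A + hWJ-MSCs mice. The Con A + PBS mice stood below all 8 others. It fell by 0.91 on the log2 scale (95% interval -1.23 to -0.60, adjusted p 2.1e-04).

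Mrpl23 (chr7:142532799-142540737), the counterpart of the protein at the rim of the bacterial exit tunnel, scored 797, 504, 622 and 486 in the control mice, 383, 419, 356 and 324 in the Con A + PBS mice and 567, 565, 594 and 442 in the Con A + hWJ-MSCs mice. Again the Con A + PBS mice lay below every mouse of the other groups, and the log2 difference from control was -0.68 (95% interval -1.02 to -0.33, adjusted p 0.00318). Mrpl42 (chr10:95480806-95501927), a large subunit protein with no bacterial counterpart, scored 970, 550, 736 and 470 in the control mice, 458, 540, 498 and 270 in the Con A + PBS mice and 666, 772, 767 and 662 in the Con A + hWJ-MSCs mice. Control and Con A + PBS mice overlapped for Mrpl42, which has the largest spread between mice of a group among the members (pooled SD 0.379 on the log2 scale). Its log2 difference was -0.62 (95% interval -1.13 to -0.10, adjusted p 0.0421), and the call was kept in 4 of 12 fits with 1 mouse removed at a time. Without Con A + PBS mouse 4 the value was -0.397 and without control mouse 1 it was -0.429.

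Of the small subunit, Mrps35, a protein bacteria lack, scored 512, 338, 442 and 315 in the control mice, 260, 236, 276 and 290 in the Con A + PBS mice and 344, 364, 404 and 299 in the Con A + hWJ-MSCs mice. Every Con A + PBS mouse was below every other mouse, and the log2 difference from control was -0.57 (95% interval -0.91 to -0.24, adjusted p 0.00727). Mrps5, the counterpart of a bacterial protein near the path by which messenger RNA enters, scored 924, 640, 724 and 750, then 494, 578, 550 and 573, then 638, 756, 721 and 640 in the 3 groups in the same order, and fell by 0.46 on the log2 scale after Con A (adjusted p 0.00562). Mrps27, a helical repeat protein of the small subunit, scored 700, 558, 750 and 594 in the control mice and 479, 442, 406 and 588 in the Con A + PBS mice, with Con A + PBS mouse 4 inside the control range. Its log2 difference was -0.45 (95% interval -0.73 to -0.16, adjusted p 0.0122). Mrps36, which is a subunit of the 2-oxoglutarate dehydrogenase complex and not of the ribosome, scored 240, 186, 217 and 158 in the control mice, 156, 152, 144 and 113 in the Con A + PBS mice and 204, 248, 229 and 220 in the Con A + hWJ-MSCs mice, and fell by 0.49 after Con A (adjusted p 0.0122). The other members that fell were Mrpl2, Mrpl9, Mrpl28, Mrpl39, Mrpl48, Mrps9, Mrps16 and Mrps24, with log2 differences from -0.444 for Mrpl39 to -0.238 for Mrpl9.

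Mrps18b (chr17:35910379-35916389) rose most after Con A. Mammals have 3 relatives of bacterial S18, of which Mrps18a sits in the large subunit, Mrps18c takes the bacterial place in the small subunit and Mrps18b holds a place of its own there. Mrps18b scored 600, 576, 638 and 518 in the control mice, 916, 869, 988 and 1468 in the Con A + PBS mice and 964, 724, 1106 and 970 in the Con A + hWJ-MSCs mice. Both Con A groups stood above all control mice. The log2 difference between Con A + PBS and control was 0.83 (95% interval 0.464 to 1.202, adjusted p 0.0013). The exons of an overlapping gene, Gm16279, cover 59.1% of the exon bases of its transcript, and the labels name no step that marks strand, so reads of the 2 genes cannot be told apart. The relatives did not share that size of difference: Mrps18a scored 368 to 402 in the control and 390 to 444 in the Con A + PBS mice (log2 difference 0.11, 95% interval -0.07 to 0.29), and Mrps18c scored 280 to 418 and 310 to 378 (0.07, 95% interval -0.21 to 0.34).

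Mrpl17 (chr7:105806658-105811099), the counterpart of a bacterial protein close to the exit of the peptide tunnel, scored 940, 670, 884 and 743 in the control mice, 1258, 1442, 1342 and 1618 in the Con A + PBS mice and 1486, 1201, 1638 and 1660 in the Con A + hWJ-MSCs mice. It was higher in all 8 Con A mice than in any control mouse, with a log2 difference of 0.81 (95% interval 0.51 to 1.12, adjusted p 4.1e-04). Mrps12 (chr7:28739641-28740067), the counterpart of bacterial S12 at the decoding centre, scored 390, 448, 400 and 421 in the control mice, 619, 604, 664 and 450 in the Con A + PBS mice and 556, 497, 852 and 842 in the Con A + hWJ-MSCs mice. Con A + PBS mouse 4 was just above the highest control mouse. The log2 difference was 0.48 (95% interval 0.09 to 0.87, adjusted p 0.038), and the call was kept in 6 of 12 fits without 1 mouse, lost without control mouse 1, 3 or 4 or Con A + PBS mouse 1, 2 or 3. Mrps6, the counterpart of bacterial S6, scored 193, 165, 177 and 142, then 222, 260, 236 and 220, then 303, 202, 284 and 186 in the 3 groups, a log2 difference of 0.47 after Con A (adjusted p 0.0243; kept in 10 of 12 fits, lost without control mouse 4 or Con A + PBS mouse 2). Smaller rises were those of Mrps23 (0.341), Mrpl19 (0.321), Mrpl53 (0.315), Mrpl54 (0.307, kept in 2 of 12 fits) and Mrpl43 (0.290). All exon bases of the Mrpl53 transcript lie in exons of other genes, as do 39.2% of those of Mrpl19, 36.1% of those of Mrps6 and 27.5% of those of Mrpl43.

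**Figure D3:**
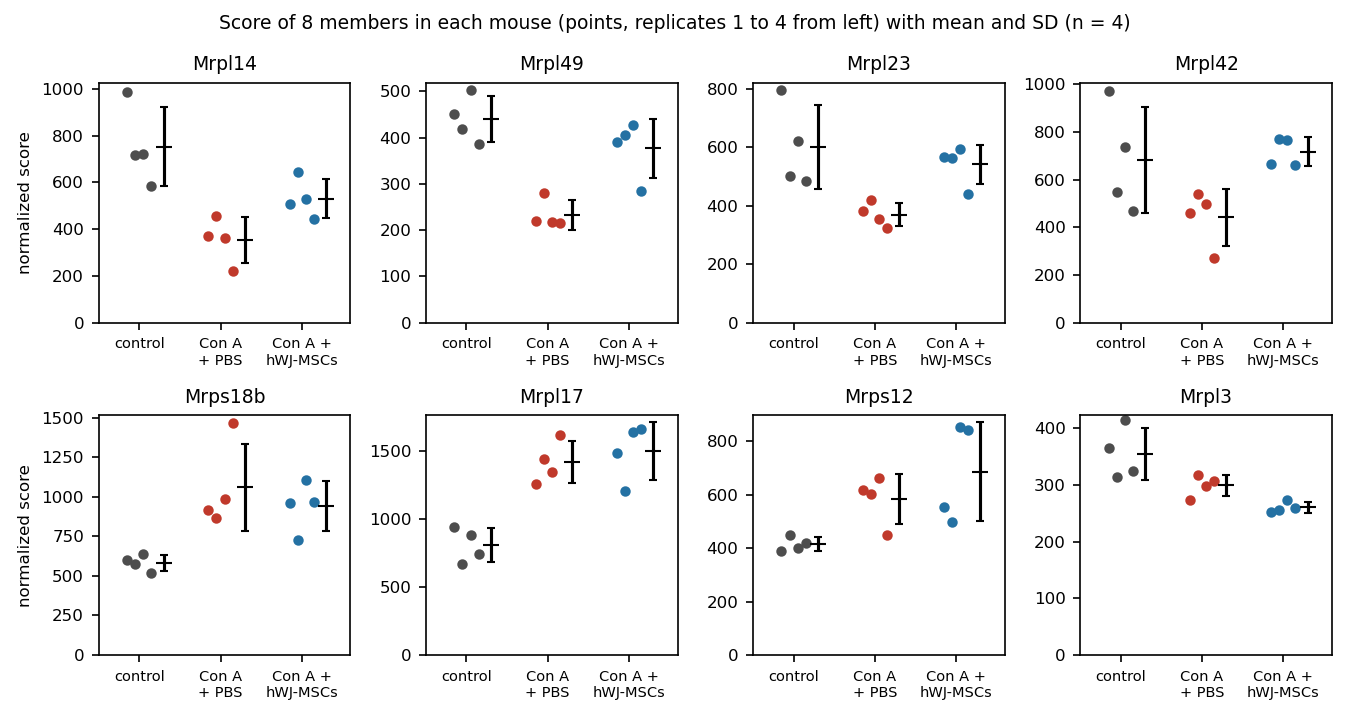
Score of 8 members in each mouse, 1 panel a gene, with points for mice 1 to 4 of each group from left to right and a bar for the mean and SD (n = 4). In the upper row the 4 Con A + PBS mice lie low for Mrpl14, Mrpl49 and Mrpl23 and overlap control for Mrpl42, and in the lower row Mrps18b and Mrpl17 are higher in both Con A groups while Mrpl3 is lowest with hWJ-MSCs.

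By subunit, the large one had 5 of 50 members up and 9 down with a median log2 difference of -0.041. The small one had 4 of 26 up and 6 down with a median of -0.183, where 29.5% of all genes rose and 26.0% fell. Members with a counterpart at the same place in the bacterial ribosome (46) had a median of -0.155 and those found only in mitochondria (30) one of -0.03. These medians are descriptions and the differences between classes were not tested. No protein of the stalk passed. The stalk, which recruits the translation factors, is formed by Mrpl10, Mrpl11 and Mrpl12. Mrpl10, the member with the smallest spread between mice (pooled SD 0.069), scored 672 to 770 in the control and 651 to 706 in the Con A + PBS mice, a log2 difference of -0.09 (95% interval -0.27 to 0.09). Mrpl11 gave 0.007 (95% interval -0.28 to 0.29). Mrpl12, which also binds the mitochondrial RNA polymerase, scored 1213, 1246, 1450 and 1195 in the control and 862, 1166, 992 and 1147 in the Con A + PBS mice. The Mrpl12 groups did not overlap, yet its adjusted p was 0.0589 (log2 difference -0.30, 95% interval -0.57 to -0.03). Mrpl44, which has an RNase III fold (-0.02), Mrpl45, which faces the inner membrane at the tunnel exit (0.18), Mrpl36 (-0.05) and Mrpl41 (0.02) of the large subunit did not pass, nor did Mrps2 (0.22), Mrps14 (-0.24), Mrps22 (-0.08) and Mrps34 (-0.13) of the small one or Mrps30 (0.08), a large subunit protein in spite of its name. Mrps16, whose human counterpart is mutated in a mitochondrial disease, fell by 0.39 (adjusted p 0.0233).

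Of the 25 calls, 13 were kept in each of the 12 fits that left out 1 mouse, and these include Mrpl14, Mrpl49, Mrpl23, Mrps35, Mrps5, Mrps27, Mrps36, Mrps18b and Mrpl17. The count of members that rose was 5 without control mouse 4, Con A + PBS mouse 1 or Con A + PBS mouse 2, and the count that fell was 10 without control mouse 1 or 3.

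The second comparison sets Con A + hWJ-MSCs beside Con A + PBS. Here the members that passed all differed in the same direction, and most estimates lay on that side. At an adjusted p below 0.05, 16 of the 77 were higher with hWJ-MSCs and 0 were lower, while 6.50% of all genes were higher and 6.65% lower (13.2% in either direction). With a fold above 1.5 as well, 4 were higher (4.20% of all genes) and 0 lower (4.38%, or 8.58% in either direction). At an unadjusted p below 0.05 the counts were 42 higher and 0 lower, while 18.0% of all genes were higher and 16.6% lower. The median log2 difference was 0.296, beside 0.000 over all genes, and the estimate was above 0 in 71 of the 77 members. All 4 mice given hWJ-MSCs were above all 4 given PBS for 37 members (48.1%, compared with 11.9% of all genes) and below them for 0 (11.6% of all genes). The 16 calls depend on single mice: 0 were left without Con A + PBS mouse 1 or without Con A + hWJ-MSCs mouse 2 or 3, 2 without Con A + PBS mouse 4, 3 without Con A + PBS mouse 3 or Con A + hWJ-MSCs mouse 1 and 9 without control mouse 3, which enters only through the shared spread. Calls over all genes fell with them, to between 4 and 8 higher in the 3 fits that left 0 members. The median over the members stayed between 0.268 and 0.343 in the 12 fits, and none of the 16 changed sign.

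The members that rose most with hWJ-MSCs were spread over both subunits. Mrps33, a small subunit protein that bacteria lack, scored 336, 368, 336 and 229 with PBS and 518, 616, 544 and 418 with hWJ-MSCs, with 556, 296, 380 and 299 in the control mice. The mice given hWJ-MSCs were all above those given PBS, and the control mice spanned both. The log2 difference was 0.73 (95% interval 0.28 to 1.19, adjusted p 0.0429), and the call was kept in 5 of 12 fits, lost without any mouse of the Con A groups but Con A + PBS mouse 2 and Con A + hWJ-MSCs mouse 4, and lost without control mouse 3. Mrpl49, with the scores given above, had a log2 difference of 0.68 (95% interval 0.37 to 1.00, adjusted p 0.0226), and Mrps36 one of 0.68 (95% interval 0.36 to 0.99, adjusted p 0.0243). Both calls were kept in 9 of 12 fits and lost without Con A + PBS mouse 1 or Con A + hWJ-MSCs mouse 2 or 3. Mrpl33, the counterpart of bacterial L33, scored 402, 466, 420 and 338 with PBS and 610, 664, 690 and 548 with hWJ-MSCs, beside 622, 373, 522 and 318 in the control mice, a log2 difference of 0.63 (95% interval 0.22 to 1.04, adjusted p 0.0468). That call was kept in 4 of 12 fits and lost without the same mice as that of Mrps33 or without control mouse 2.

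Mrps14, the counterpart of bacterial S14, scored 404, 494, 427 and 382 with PBS and 617, 656, 736 and 554 with hWJ-MSCs, and the groups stood apart (log2 difference 0.58, 95% interval 0.25 to 0.92, adjusted p 0.0343). Mrpl55 scored 233, 229, 223 and 278 with PBS and 330, 388, 394 and 324 with hWJ-MSCs (0.57, adjusted p 0.0408). Mrps28 scored 233, 324, 284 and 281 with PBS and 440, 372, 460 and 382 with hWJ-MSCs (0.56, adjusted p 0.0344). In each of the 3 genes the lowest mouse with hWJ-MSCs was above the highest with PBS. Mrps24, the counterpart of bacterial S3, scored 486, 643, 506 and 462 with PBS and 774, 795, 804 and 683 with hWJ-MSCs, a log2 difference of 0.55 (95% interval 0.28 to 0.83, adjusted p 0.0259). The remaining calls were Mrpl2, Mrpl4, Mrpl23, Mrpl27, Mrpl39, Mrps16, Mrps18c and Mrps34, from 0.341 for Mrpl39 to 0.545 for Mrpl23. Mrps34, a small subunit protein that bacteria lack, was at 0.41 (adjusted p 0.0495) and its transcript shares 62.8% of its exon bases with Mapk8ip3.

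Estimates below 0 were few and none passed. The 3 with the smallest p in that direction were Mrpl3 (log2 difference -0.20, 95% interval -0.42 to 0.03, adjusted p 0.19), Mrps18b (-0.16, 95% interval -0.53 to 0.21, adjusted p 0.54) and Mrps30 (-0.09, 95% interval -0.43 to 0.24, adjusted p 0.694). Mrpl17, which had risen after Con A, was at 0.08 (95% interval -0.23 to 0.38). The stalk proteins gave 0.21 for Mrpl10, 0.33 for Mrpl11 and 0.29 for Mrpl12, and the adjusted p was 0.101, 0.0981 and 0.121; of Mrpl10 and Mrpl11 every mouse given hWJ-MSCs was above every mouse given PBS. The medians of the large and small subunit were close, 0.294 and 0.308. Of their 50 and 26 members 8 and 7 were higher, where 6.50% of all genes were. Mrpl36 (0.30), Mrpl41 (0.22), Mrpl44 (0.09), Mrpl45 (0.05), Mrps2 (0.03), Mrps5 (0.33), Mrps6 (0.03), Mrps12 (0.21), Mrps22 (-0.01) and Mrps27 (0.23) did not pass.

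**Figure D4:**
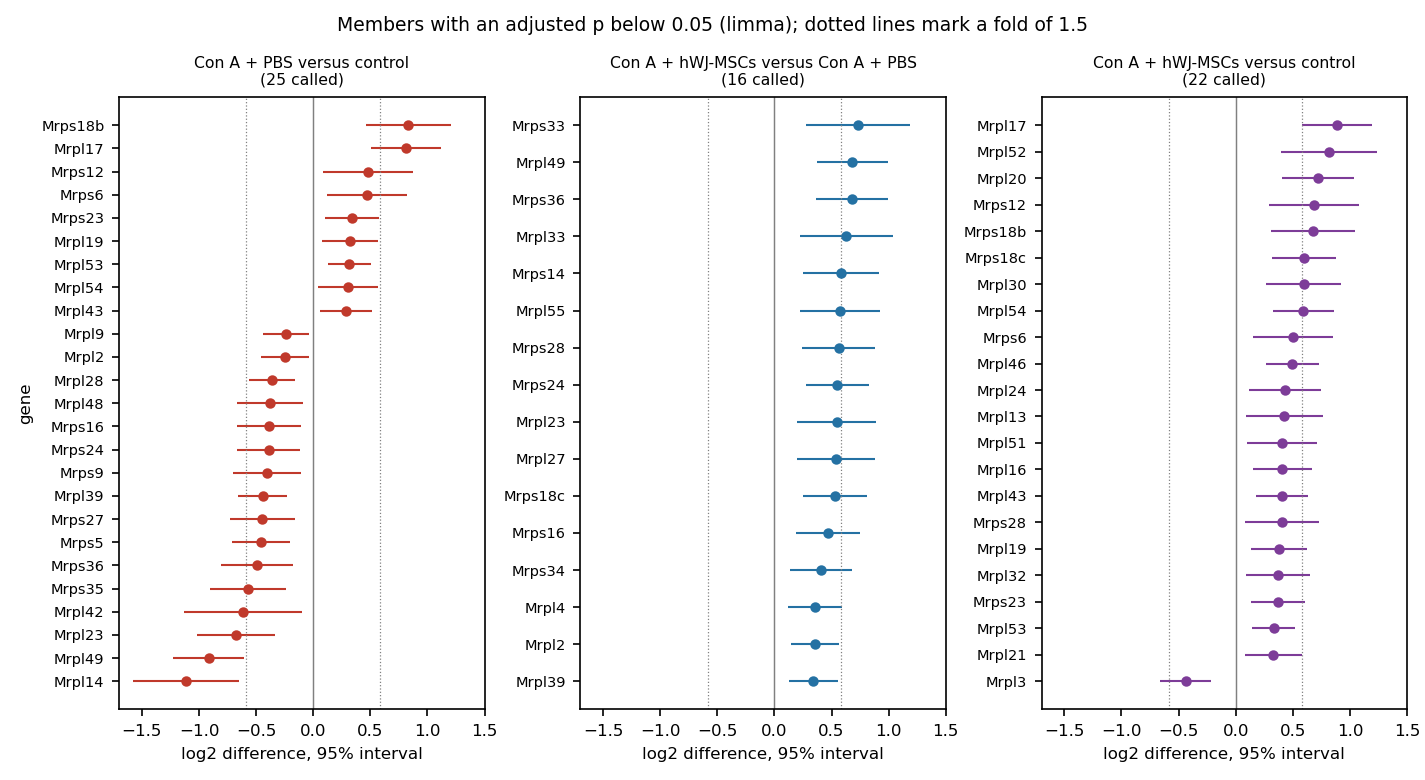
Log2 differences (points) with 95% intervals (bars) of the members with an adjusted p below 0.05 in each comparison, ordered by size; dotted lines mark a fold of 1.5. The left panel has 9 genes to the right and 16 to the left of 0, the middle panel 16 to the right and 0 to the left, and the right panel 21 to the right and 1, Mrpl3, to the left.

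The third comparison sets Con A + hWJ-MSCs beside control, and it shares its mice with the other 2. In it 21 of the 77 members were higher and 1 was lower, while 22.3% of all genes were higher and 18.4% lower (40.8% in either direction). With a fold above 1.5, 8 were higher (13.6% of all genes) and 0 lower (13.1%, or 26.7% in either direction). The median log2 difference was 0.221, beside 0.041 over all genes, and 59 of the 77 estimates were above 0. All 4 mice given hWJ-MSCs were above all 4 control mice for 16 members (20.8%, compared with 20.6% of all genes). The number higher was 13 without control mouse 2 or Con A + hWJ-MSCs mouse 1 and 12 without control mouse 4 or Con A + hWJ-MSCs mouse 3. Of the 22 calls, 12 were kept in all 12 fits.

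Mrpl17 was highest above control, at 0.89 (95% interval 0.58 to 1.19, adjusted p 4.1e-04). Mrpl52, a large subunit protein that bacteria lack, scored 890, 588, 718 and 472 in the control mice, 1022, 924, 970 and 640 in the Con A + PBS mice and 1096, 1018, 1308 and 1172 in the Con A + hWJ-MSCs mice. Its Con A + PBS mice overlapped control while its hWJ-MSCs mice did not, and the log2 difference of the latter from control was 0.82 (95% interval 0.40 to 1.24, adjusted p 0.0053). Mrpl20, the counterpart of a bacterial protein that binds early in assembly, scored 538, 381, 518 and 378, then 586, 580, 638 and 462, then 727, 680, 836 and 718 in the 3 groups. Each mouse given hWJ-MSCs was above all 8 others, with a log2 difference from control of 0.72 (95% interval 0.41 to 1.03, adjusted p 0.00193). Mrps12 (0.69), Mrps18b (0.68), Mrps18c (0.60), Mrpl30 (0.60) and Mrpl54 (0.59) followed, and each of these 5 was higher in all 4 mice given hWJ-MSCs than in any control mouse.

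The lowest estimate against control was that of Mrpl14, at -0.491 (limma, adjusted p 0.0865), which was not called. Mrpl3 (chr9:105053239-105076472) was the 1 member called lower. It is the counterpart of bacterial L3, which reaches toward the peptidyl transferase centre. Mrpl3 scored 366, 314, 415 and 325 in the control mice, 273, 318, 298 and 308 in the Con A + PBS mice and 252, 256, 274 and 260 in the Con A + hWJ-MSCs mice. The mice given hWJ-MSCs were all below the control mice, and 1 of them lay just above the lowest Con A + PBS mouse, and the log2 difference from control was -0.44 (95% interval -0.66 to -0.21, adjusted p 0.00512). The call was kept in all 12 fits.

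The 3 comparisons share mice and are not independent, so their values are set side by side for a few members. Mrpl49 was at -0.91 after Con A, 0.68 with hWJ-MSCs against PBS and -0.23 with hWJ-MSCs against control (adjusted p 0.217), Mrps36 was at -0.49, 0.68 and 0.18 (adjusted p 0.341 in the last), and Mrps24 was at -0.39, 0.55 and 0.16 (adjusted p 0.337 in the last). Mrps18b was at 0.83, -0.16 and 0.68, and Mrpl17 at 0.81, 0.08 and 0.89 in the same order. Mrps18c, whose transcript shares 27.3% of its exon bases with Gm43511, was at 0.07, 0.53 and 0.60, and Mrpl3 at -0.24, -0.20 and -0.44. For 32 members no comparison gave a call. Of all genes 55.5%, 13.2% and 40.8% were called in the 3 comparisons, and the share without any call is not given here.

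In the control and Con A + hWJ-MSCs groups the same mouse was highest for most members. Control mouse 1 had the highest score of its group for 53 of the 77 members and control mouse 4 the lowest for 42, and Con A + hWJ-MSCs mouse 3 was highest for 54 and mouse 4 lowest for 36. In the Con A + PBS group mouse 2 was highest for 36 members, and mouse 4 was lowest for 36 and highest for 22. Members measured in the same mice are not independent measurements of a group. The median SD of the members on the log2 scale was 0.22 in control, 0.159 with PBS and 0.133 with hWJ-MSCs, beside 0.222, 0.206 and 0.196 over all genes. Mrpl10, Mrpl38 (0.071) and Mrps18a (0.074) were the steadiest, and Mrpl42, Mrpl14 (0.34) and Mrps33 (0.33) varied most.

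Neighbours that share an upstream interval did not always move alike. Mrpl14 and Tmem63b, an ion channel gene, start 63 bases apart. Tmem63b scored 878, 1576, 872 and 1262 in the control mice, 558, 744, 569 and 620 in the Con A + PBS mice and 590, 571, 502 and 546 in the Con A + hWJ-MSCs mice. Both genes fell after Con A (Tmem63b by 0.84, adjusted p 0.00158), and Tmem63b stayed low with hWJ-MSCs (-1.01 against control, adjusted p 8.4e-04), while Mrpl14 was at -0.49 (adjusted p 0.0865). Exons annotated to Tmem63b cover 16.4% of the exon bases of the Mrpl14 transcript.

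Mrpl49 and Fau start 137 bases apart and went in opposite directions. Fau, which encodes a cytosolic ribosomal protein fused to a ubiquitin-like one, scored 1918, 1268, 1654 and 1467 in the control mice, 2968, 2284, 2439 and 2968 in the Con A + PBS mice and 2898, 2236, 3081 and 3397 in the Con A + hWJ-MSCs mice. Fau rose by 0.76 after Con A (adjusted p 0.0016), where Mrpl49 fell by 0.91. Mrps18b rose while Ppp1r10, whose start is 45 bases away, gave 0.13 (adjusted p 0.61). Mrpl46 and Mrps11, which share the 52-base interval shown, gave 0.23 and -0.15 after Con A and passed in neither case, and against control with hWJ-MSCs Mrpl46 rose by 0.49 (adjusted p 0.00322) and Mrps11 gave 0.11 (adjusted p 0.589). Mrpl43, above control after Con A, adjoins Peo1, the mitochondrial DNA helicase Twinkle, at 116 bases, and Peo1 gave -0.28 (adjusted p 0.0966).

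RefSeq promoter windows, 250 bases before to 50 after the start, were matched to 68 of the 77 members, and in 50 the start lay within 50 bases of that in the table. The ETS letters CCGGAAG were in 25 windows (36.8%, compared with 18.8% of the windows of all table genes). The NRF1 letters GCATGCG were in 8 (11.8%, compared with 6.73%), the YY1 letters ATGGCGG in 13 (19.1%, compared with 8.85%) and the E-box letters CACGTG in 5 (7.35%, compared with 10.2%). After Con A, 6 rose and 3 fell of the 25 members with the ETS letters, 2 and 2 of the 8 with the NRF1 letters, 1 and 3 of the 13 with the YY1 letters and 0 and 1 of the 5 with the E-box letters, where 29.5% of all genes rose and 26.0% fell. Of the 43 members without the ETS letters, 1 rose and 12 fell. With hWJ-MSCs against PBS, 5 of the 25 with the ETS letters and 8 of the 43 without them were higher, where 6.50% of all genes were. The medians were 0.31 and 0.28. These counts were looked at after the values were known and were not tested. A match of letters is no proof of a bound site, and their absence from a window says nothing of the factor.

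Other genes of mitochondrial protein synthesis were read in the same table, in lists that the rule did not use. Their counts stand beside 29.5% of all genes that rose and 26.0% that fell after Con A, and 6.50% that were higher and 6.65% lower with hWJ-MSCs against PBS, and no list was tested against these shares. Of 6 mitoribosome subunits with other names, none passed after Con A (median -0.055; Ptcd3, of the small subunit, had the smallest p at -0.16, adjusted p 0.209). With hWJ-MSCs all 6 estimates were above 0 and 1 passed, Gadd45gip1, a large subunit protein named here after its values were seen, at 0.37 (adjusted p 0.0404). Of 23 assembly and rRNA maturation factors, 4 rose and 4 fell after Con A. Ddx28, an RNA helicase of the large subunit's assembly, scored 204, 268, 270 and 265 in the control mice, 1176, 921, 1188 and 1483 in the Con A + PBS mice and 835, 500, 751 and 943 in the Con A + hWJ-MSCs mice. All 8 Con A mice were above all controls, with a log2 difference of 2.23 after Con A (adjusted p 2.7e-06) and -0.67 with hWJ-MSCs against PBS (adjusted p 0.0437). The pseudouridine synthase Trub2 rose by 0.96 (adjusted p 0.00168).

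Of 16 translation factors, 2 rose and 3 fell after Con A, and Pde12, which trims the tails of mitochondrial RNAs, rose by 1.23 (adjusted p 7.1e-05). Of 20 aminoacyl-tRNA synthetases, 5 rose and 5 fell, with the largest changes in Gars (0.90), which also charges tRNA in the cytosol, and Qrsl1 (0.76), a subunit of the amidotransferase that makes glutaminyl-tRNA and no synthetase itself. Of 16 genes of mitochondrial DNA transcription and replication, 1 rose and 6 fell. Pnpt1, an RNA-degrading enzyme, rose by 1.49 and Polg2, the accessory subunit of the mitochondrial DNA polymerase, fell by 1.73 (adjusted p 7.3e-05). Polg2 had low scores, 70 to 108 in the control mice and 18 to 36 in the Con A + PBS mice. Of 36 import genes, 10 rose and 5 fell, among them Tomm40l (1.66) and Mipep (-1.31), the peptidase that trims imported proteins. With hWJ-MSCs against PBS each of these 4 lists had 1 or 2 genes higher and 0 lower.

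Of 15 regulators of mitochondrial biogenesis, 3 rose and 5 fell after Con A, and with hWJ-MSCs against PBS 2 were higher and 2 lower. Myc, a growth factor-induced transcription factor, scored 106, 58, 39 and 48 in the control mice, 578, 282, 274 and 1692 in the Con A + PBS mice and 152, 74, 112 and 113 in the Con A + hWJ-MSCs mice. All Con A + PBS mice were above the other 8, and mouse 4 stood far above its group. Myc rose by 3.15 (adjusted p 2.3e-04) after Con A and was lower with hWJ-MSCs than with PBS, at a log2 difference of -2.25 (adjusted p 0.0252). Ppargc1b had low scores, 38 to 80 in the control mice and 18 to 22 in the Con A + PBS mice. The coactivators Ppargc1b and Ppargc1a fell by 1.57 (adjusted p 6.1e-04) and 0.67 (adjusted p 0.00151) after Con A, and Gabpa, the DNA-binding subunit of GABP, fell by 0.40 (adjusted p 0.0028). Of their relatives on the list, named after their values were seen, the coactivator Pprc1 rose by 1.43 (adjusted p 0.00253), and of the partner subunits of GABP Gabpb1 rose by 0.415 (adjusted p 0.0125) and Gabpb2 gave -0.089 (adjusted p 0.498). Nrf1 (0.24, adjusted p 0.0972), Yy1 (0.15, adjusted p 0.284) and Esrra (0.06, adjusted p 0.797) did not pass.

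Respiratory chain subunits, which work beside the products of these ribosomes, had medians further from 0 than the members. Of 37 genes matched as nuclear complex I subunits, 25 fell and 1 rose after Con A with a median of -0.671, and 17 were higher and 1 lower with hWJ-MSCs with a median of 0.612. The 1 that rose and was then lower, Ndufa4l2 (2.83 after Con A), is a paralogue that is not known as a complex I subunit, and Ndufs8 fell by 1.13. Of 36 genes matched to complexes III to V, 16 fell and 0 rose (median -0.451), and 11 were higher and 0 lower with hWJ-MSCs (median 0.555); Uqcr11 fell by 1.24 and Atp5sl, which is not itself a subunit of the ATP synthase, by 1.19. The members' medians in the same 2 comparisons were -0.09 and 0.296. The symbol pattern for cytosolic ribosomal proteins matched Rplp0, Rplp1, Rplp2 and Rpsa in the table, and it does not take in Fau, which is described above. All 4 rose after Con A (median 1.062, with Rplp2 at 1.41 and Rplp0 at 1.13) and 0 differed between the Con A groups. No mitochondrially encoded gene was matched.

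**Figure D5:**
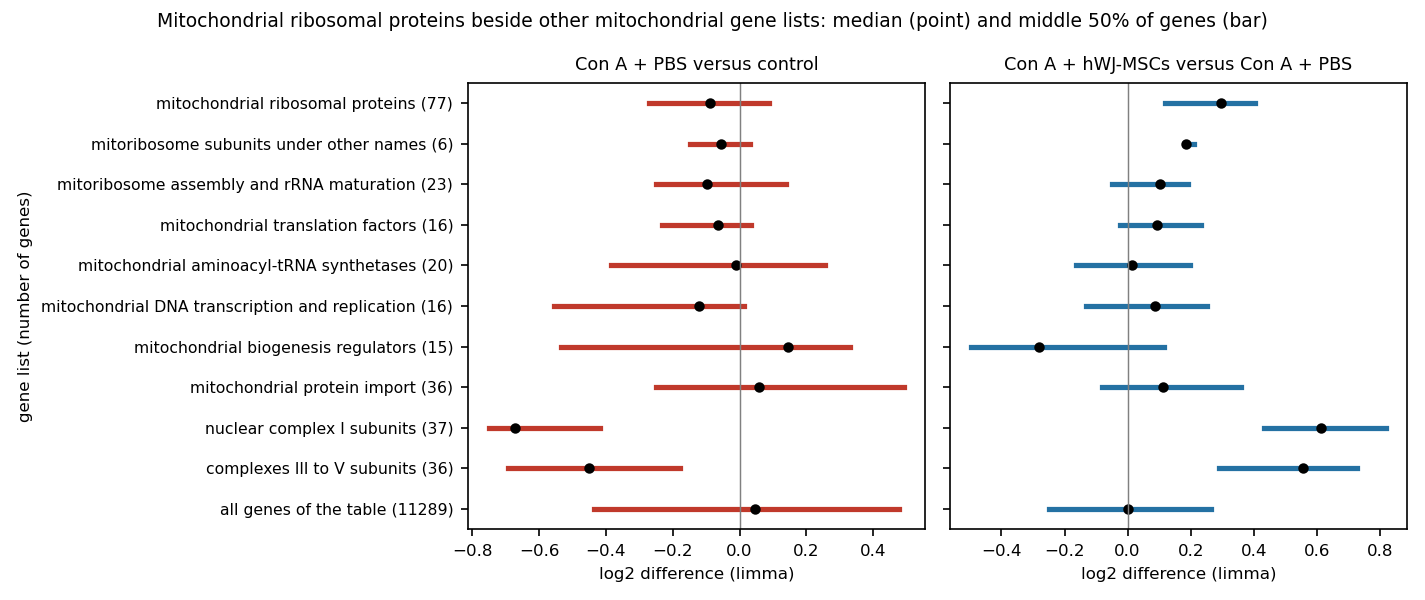
Median (point) and middle 50% (bar) of the log2 differences of the members, of 9 other mitochondrial gene lists and of all genes, for Con A + PBS against control (left) and Con A + hWJ-MSCs against Con A + PBS (right), with the number of genes in brackets. The members' median is -0.09 on the left and 0.296 on the right, and the nuclear complex I genes lie further out at -0.671 and 0.612.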

How the data were processed

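RNA of 12 mouse livers, 4 from each of the 3 groups, was extracted with Trizol and selected by poly-T before library preparation. The authors deposited 1 table with a score for each of 11289 genes in each mouse, a whole number already normalized between mice by a method not given in the sources used here. The submitters' processing notes name Bowtie2 2.2.1, RSEM 1.2.18 and the mm10 build. Depth is therefore unknown, genes with low scores had been left out, and equal medians in all mice leave no shift of total RNA to be seen. Scores are not read counts, so no count model was used.

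Groups came from the sample labels. In R 4.3.3, limma 3.58.1 was fitted to log2(score + 1), a pseudocount of 1 that slightly understates changes of low genes, over all 12 mice with a trended variance, and p-values were adjusted by Benjamini-Hochberg over all 11289 genes. A gene was called at an adjusted p below 0.05, with any fold or with a fold above 1.5, and was said to rise or fall only when called. Intervals are 95% intervals of the fit and pooled SDs are within groups. Tables were joined with Python 3.11.15, pandas 2.3.3 and numpy 2.4.6. The fit was also run on simulated data with independent noise in each gene, a simpler setting than these data, and no result here rests on it.

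The members, gene lists and tests were chosen with earlier results of these data known. Named were up to 8 members with the largest called change in each direction of each comparison (the 3 with the smallest p where none was called), members with a known task, in each other list up to 2 genes with the largest change after Con A among those called with a fold above 1.5 (the 1 with the smallest p where none was), and fixed regulators. Promoter windows came from RefSeq, GRCm38.p6. Of the 77 member transcripts 75 are in GENCODE M21, 67 of them protein-coding. Those of Mrpl20, Mrpl23, Mrpl51 and Mrps12 are annotated as processed transcripts and that of Mrps35 as a retained intron. Those of Mrpl13, Mrpl32 and Mrps14 are annotated as subject to nonsense-mediated decay. Whether these scores reflect the coding messages was not tested. No strand-marking step is named, so overlapping genes cannot be told apart. Mice of the same replicate number are different animals, and the main fit did not use the numbers. Alternatives were another pseudocount, a filter, 2 scalings, no variance trend, 8 mice only, a replicate block, unadjusted p, a fold of 2 and leaving out each mouse.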

Additional observations from a re-analysis of the deposited data

Results flagged for a closer look

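In 9 of the 231 pairs of gene and group, 1 mouse stood apart from the other 3 by more than Dixon's 95% critical value for 4 samples, which chance alone gives in about 1 group of 20. Of the 9, 3 are low ones of Con A + hWJ-MSCs mouse 4: Mrpl15 scored 848 where the others scored 1006 to 1026, Mrpl36 scored 514 (558 to 566) and Mrps21 scored 588 (694 to 715). Con A + PBS mouse 4 was low for Mrpl24 at 962 (1148 to 1184) and for Mrpl27 at 416 (576 to 592). Mrpl49 scored 281 in Con A + PBS mouse 2 (216 to 219). Mrpl53 scored 626 in Con A + PBS mouse 3 (526 to 540), Mrpl39 scored 486 in Con A + hWJ-MSCs mouse 3 (434 to 442), and Mrpl19 scored 185 in control mouse 4 (207 to 210).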

How the results depend on the processing

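Without 1 mouse, the members called after Con A numbered 5 to 11 higher and 10 to 18 lower (2 to 3 and 2 to 6 with a fold above 1.5), with a median of -0.139 to -0.042. With hWJ-MSCs against PBS 0 to 23 were higher (0 to 11 with the fold), with a median of 0.268 to 0.343, and against control 12 to 29 were higher (4 to 10 with the fold) and 1 to 2 lower, with a median of 0.122 to 0.296. A fold above 2 left 0 members higher and 1 lower after Con A, 0 higher with hWJ-MSCs against PBS and 0 higher against control. Without a variance trend 9 were higher with hWJ-MSCs against PBS, 2 of them with the fold, and at an unadjusted p 42 were (18.0% of all genes). Against control 2 members were lower in a fit of only the 8 mice compared, with the replicate block and at an unadjusted p. Another pseudocount and the filter moved no count of calls at any fold by more than 2. Median centring and quantile normalization could move little, since the deposited scores already had the same median and maximum in every mouse.

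Correlations of same-numbered mice ran from -0.118 to 0.375 and those of others from -0.385 to 0.141. The highest, 0.375 for mice 2 and 0.244 for mice 4, were between same-numbered mice of the Con A groups. Whether same-numbered mice shared a processing batch was not tested. With the replicate block 11 members rose and 16 fell after Con A, 23 were higher with hWJ-MSCs against PBS, 15 of them among the 16, and 25 were higher and 2 lower against control. The cause of these shifts was not tested.

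Some estimates near 0 of named members, not all of them given in the text, changed sign without 1 mouse, and none of these was called. After Con A these included Mrpl11 (-0.076 to 0.099), Mrpl36 (-0.13 to 0.061), Mrpl41 (-0.055 to 0.129), Mrpl44 (-0.068 to 0.027), Mrps18c (-0.014 to 0.178) and Mrps30 (-0.042 to 0.148). With hWJ-MSCs against PBS they included Mrpl45 (-0.028 to 0.177), Mrps2 (-0.021 to 0.098), Mrps6 (-0.087 to 0.146), Mrps18b (-0.241 to 0.011), Mrps22 (-0.117 to 0.08) and Mrps30 (-0.17 to 0.029). With hWJ-MSCs against control they included Mrpl12 (-0.068 to 0.055), Mrpl44 (-0.004 to 0.125), Mrps11 (-0.004 to 0.222), Mrps16 (-0.02 to 0.182), Mrps22 (-0.192 to 0.005) and Mrps30 (-0.089 to 0.102). Depth is unknown, so no limit from it can be given.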
